A study of Homo sapiens with 18 samples.

Results

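The 8 transcription factors described here, which set and keep the identity of hepatocytes, were followed across free fatty acid (FFA) loading, fucoxanthin and Resmetirom in Hep3B cells. The set was a list of gene symbols, HNF4A, FOXA1, FOXA2, FOXA3, CEBPA, ONECUT1, NR5A2 and PROX1. These 8 genes were taken from 36684 genes in the count table. All 8 were among the 14557 genes that passed the filter on low counts.

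Hep3B is a human liver cancer cell line, here 1 line of tumor origin and not primary hepatocytes. Poly(A) RNA was sequenced from 18 libraries in 6 groups of 3. The control group (Con) received no FFA, the model group (Model) received FFA to load the cells with lipid, and the FUCO-0.5, FUCO-1 and FUCO-2 groups received FFA together with fucoxanthin, a carotenoid of brown algae, at 0.5, 1 and 2 μM. The RES group received FFA together with Resmetirom, an agonist of thyroid hormone receptor β that served as the reference drug. The FFA concentration, the length of treatment and the Resmetirom dose of these libraries were not given in the sources used here.

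Hepatocyte identity rests on a network of factors that bind each other's genes as well as those of secreted liver proteins. The forkhead factors FOXA1, FOXA2 and FOXA3 open chromatin at liver enhancers, HNF4A is a nuclear receptor that drives much of the mature liver program, and C/EBPα (encoded by CEBPA) is a leucine zipper factor of the differentiated, non-dividing hepatocyte. ONECUT1 (HNF6), NR5A2 (LRH-1) and PROX1 act in liver development and then, in the adult organ, in bile acid, cholesterol and lipid metabolism.

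Library totals ran from 16916688 to 23083498 counts, and the 8 factors together took 0.0896% to 0.138% of them. Each factor had 918 to 8031 counts in every library. Levels are given below as CPM (counts scaled to library size, with the TMM factors of edgeR), and differences as log2 fold changes with their standard error (SE). A gene was past the test where its Benjamini-Hochberg adjusted p in edgeR's quasi-likelihood test over all 14557 genes was below 0.05. Averaged over the 18 libraries, the factors lay between percentile 74.9 (FOXA3) and percentile 97.1 (PROX1) of the tested genes by CPM. Per kilobase of exon, CEBPA stood highest among them at 62.7 CPM per kb, followed by FOXA2 at 38.1, PROX1 at 36.6, HNF4A at 30.1, FOXA3 at 29.4 and FOXA1 at 28.5, while ONECUT1 at 12.2 and NR5A2 at 10.9 CPM per kb were lowest.

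The labelled cell type was checked against hepatocyte markers, and all 10 on the list (among them ALB, APOA1 and TTR) were detected, with a summed level of 67623 to 75578 CPM in Con. Not all liver genes were present at such levels, as 13 of the 17 HNF4A targets listed below passed the filter on low counts. Of 8 markers of immune, endothelial and stellate or fibroblast cells, COL3A1 and ACTA2 were at 0 in every library, which allows up to 3 counts in each, and PTPRC, VWF and LYVE1 had at most 2, 1 and 1 counts. The summed level of the 8 ran from 1.13 to 1.85 CPM in Con, 2.52 to 2.95 in Model, 1.84 to 2.93 in FUCO-2 and 2.29 to 3.28 CPM in RES. PECAM1 and COL1A1 were the 2 tested, and COL1A1 was higher in RES than in Model by a log2 fold change of 0.62 (adjusted p = 0.0489, SE 0.26). PECAM1 was lower in RES than in Model, by -0.92 (adjusted p = 0.038), and higher in Model than in Con, by 1.78 (adjusted p = 0.00488), from 3 to 36 counts per library. Without 1 of the Model or RES libraries, 0 to 1 of these markers were past the test in RES against Model, and the part of these markers in the results on the factors was not tested. Where a factor differed, fewer cells with its transcript and less transcript per cell cannot be told apart in bulk RNA.

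The widest range over the 6 groups was that of CEBPA, whose highest group mean was 3.10 times its lowest. PROX1 followed at 2.11 times, then ONECUT1 at 1.66, FOXA3 at 1.63, NR5A2 at 1.57 and FOXA1 at 1.44 times. HNF4A at 1.32 and FOXA2 at 1.25 times moved least. RES had the lowest mean of 7 of the 8 factors, and FUCO-1 had that of FOXA2. Con had the highest mean of 5 of them (CEBPA, FOXA1, FOXA2, FOXA3 and NR5A2), Model that of HNF4A and ONECUT1, and FUCO-0.5 that of PROX1.

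**Figure D1:**
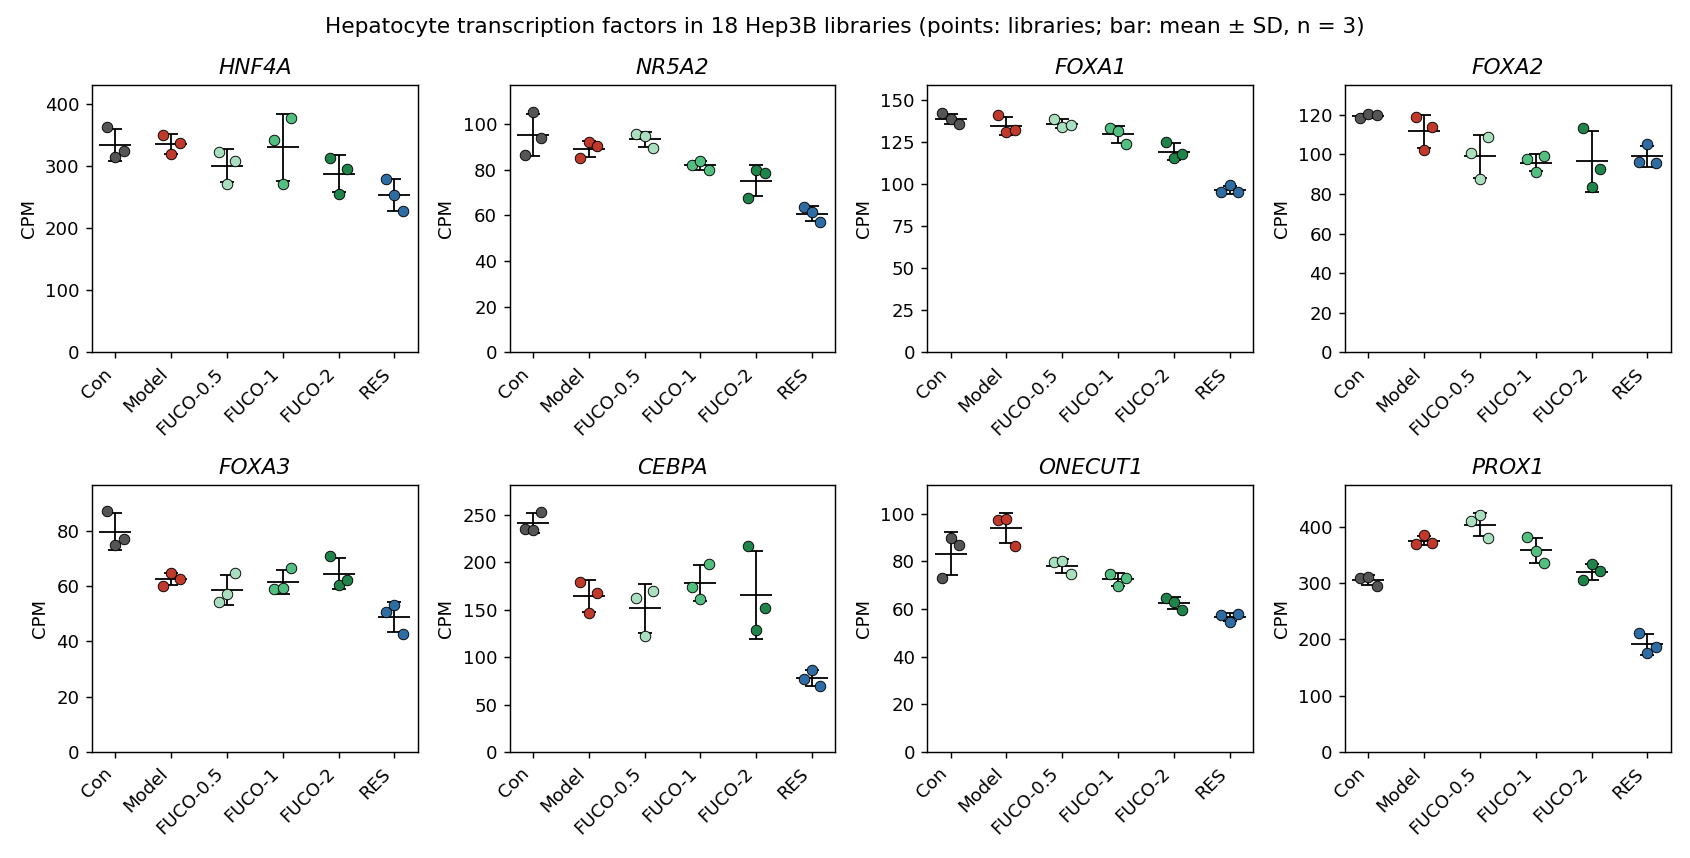
Level of each factor in CPM (linear axis from 0) in each of the 18 libraries, with 1 panel per gene, the 6 groups along the horizontal axis, points for libraries and bars for the mean and SD of 3. By group mean, CEBPA falls from 241 CPM in Con to 77.8 CPM in RES, and PROX1 climbs to 403 CPM in FUCO-0.5 before it falls to 191 CPM in RES. The group means of FOXA2 stay between 95.8 and 120 CPM, and its lowest library is at 83.5 CPM.

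The comparison of Model with Con asked what FFA loading alone did to these factors. CEBPA and FOXA3 were lower in Model and PROX1 was higher, so that 3 of the 8 were past the test, against 17.6% of all tested genes (8.43% higher and 9.12% lower). HNF4A, FOXA1, FOXA2, ONECUT1 and NR5A2 were not past it. The median log2 fold change of the 8 was -0.07, beside 0.00106 over all genes.

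CEBPA stood at 235, 234 and 253 CPM in the 3 Con libraries and at 179, 147 and 168 CPM in Model. Every Model library lay below every Con library. The log2 fold change was -0.55 (adjusted p = 0.0064, SE 0.138), which left 68.3% of the Con level. Groups did not overlap in 3 of the 8 factors in this comparison, beside 12 of 21 other liver transcription factors listed below. The share over all genes is not given here. CEBPA is a single-exon gene on chromosome 19 (GRCh38.p14, chr19:33299934-33302534, minus strand), and antisense long non-coding RNAs overlap it. FOXA3, a forkhead factor of liver and gut endoderm, had 87.2, 74.9 and 76.9 CPM in Con against 60.1, 64.6 and 62.6 CPM in Model. These groups did not overlap either, and the log2 fold change was -0.35 (adjusted p = 0.00746, SE 0.0896). FOXA3 lies on the same chromosome (chr19:45864326-45873797, plus strand).

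PROX1, a homeodomain factor which acts as a corepressor of bile acid synthesis genes in hepatocytes, went the other way. It had 309, 311 and 295 CPM in Con and 370, 385 and 372 CPM in Model. The lowest Model library exceeded the highest Con library, and the log2 fold change was 0.30 (adjusted p = 0.00509, SE 0.0726). PROX1 spans chr1:213983151-214041510 on the plus strand.

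HNF4A (chr20:44355699-44434596, plus strand) had 363, 313 and 323 CPM in Con and 349, 318 and 337 CPM in Model, with overlapping groups. Its log2 fold change was 0.01, with a 95% interval of -0.20 to 0.22 (adjusted p = 0.976). The remaining factors not past the test had log2 fold changes of -0.10 (FOXA2), -0.09 (NR5A2), -0.04 (FOXA1) and 0.18 (ONECUT1).

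The immediate upstream sequences of CEBPA and FOXA3, which fell together under FFA, and of ONECUT1, which fell most under fucoxanthin, are shown because these 3 genes carry the largest differences between groups other than PROX1. They are the 250 bases before the RefSeq start of each gene (GRCh38.p14, 5′ to 3′ on the strand of the gene). They cover chr19:33302535-33302784 (minus strand) for CEBPA, chr19:45864076-45864325 (plus strand) for FOXA3 and chr15:52790337-52790586 (minus strand) for ONECUT1. Capitals mark, on either strand, the GC box GGGCGG, the core promoter element TATAAA or the nuclear receptor core site AGGTCA.
CEBPA: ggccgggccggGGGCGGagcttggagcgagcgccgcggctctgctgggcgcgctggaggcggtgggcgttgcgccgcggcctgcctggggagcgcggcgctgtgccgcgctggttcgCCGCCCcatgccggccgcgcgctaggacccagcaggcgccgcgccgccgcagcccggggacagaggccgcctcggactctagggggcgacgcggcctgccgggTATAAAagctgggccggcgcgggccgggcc
FOXA3: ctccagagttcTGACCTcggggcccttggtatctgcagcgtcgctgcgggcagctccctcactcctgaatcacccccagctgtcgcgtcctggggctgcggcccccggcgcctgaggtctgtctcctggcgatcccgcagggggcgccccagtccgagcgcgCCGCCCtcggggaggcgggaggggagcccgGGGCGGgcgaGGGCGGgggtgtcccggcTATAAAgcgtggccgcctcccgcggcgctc
ONECUT1: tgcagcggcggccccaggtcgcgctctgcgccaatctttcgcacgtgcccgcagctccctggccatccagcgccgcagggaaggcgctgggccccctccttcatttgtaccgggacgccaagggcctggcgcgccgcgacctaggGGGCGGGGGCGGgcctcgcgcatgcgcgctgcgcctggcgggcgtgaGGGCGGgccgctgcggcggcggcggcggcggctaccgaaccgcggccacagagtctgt
All 3 windows are rich in G and C, at 81.2%, 75.2% and 76.8%, beside a median of 58% over 35116 RefSeq promoters of the same length. CEBPA and FOXA3 both hold GC boxes and a TATA box, while ONECUT1 holds GC boxes with no TATAAA in this window. Of the 8 factors, 6 had a promoter in the RefSeq table (not FOXA2 and PROX1). For each of the 6, 1 window before the gene start was searched and other start sites of the gene were not. The letters found or absent below describe that window alone. A GC box was found in 5 of the 6 (all but NR5A2), against 42.6% of all promoters, TATAAA in 3 (FOXA3, CEBPA, NR5A2) against 10.7%, and AGGTCA in 2 (FOXA3, NR5A2) against 12.1%. TATAAA began at base -30 from the start in FOXA3 and CEBPA, on the strand of the gene. In NR5A2 it lay at -201 on the opposite strand, away from the position it had in FOXA3 and CEBPA. The ONECUT letters ATTGAT were found in 1 (HNF4A) against 5.58%. The letters of forkhead (TGTTTAC), HNF4A (CAAAGTCCA), C/EBP (TTGCGCAA), NR5A2 (CAAGGTCA, which contains AGGTCA) and EGR (GCGTGGGCG) sites were found in 0 of the 6 windows, against 2.98%, 0.325%, 0.131%, 1.14% and 0.72% of all promoters.

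Fucoxanthin was compared with Model at each dose, and the 3 comparisons share the Model libraries. The number of factors past the test was 0 of 8 at 0.5 μM, 1 of 8 at 1 μM and 4 of 8 at 2 μM, and all 5 of these calls were lower with fucoxanthin. Over all tested genes the shares past the test were 1.45%, 3.21% and 20.5%, and at 1 μM 2.32% were lower. At 0.5 μM edgeR's unadjusted p was below 0.05 for 1 factor, ONECUT1, and DESeq2 called the same 1. At 2 μM the factors lower than in Model were ONECUT1, NR5A2, PROX1 and FOXA1, against 9.71% of all genes called lower, and the median log2 fold change of the 8 was -0.22, beside 0.0096 over all genes.

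ONECUT1, a cut-homeodomain factor that acts upstream of HNF4A and FOXA2 in liver development, had the largest difference. It stood at 97.3, 97.6 and 86.5 CPM in Model, at 79.5, 80 and 74.7 CPM in FUCO-0.5, at 74.7, 69.5 and 73.2 CPM in FUCO-1 and at 64.6, 63.1 and 59.6 CPM in FUCO-2. The means were 93.8 CPM in Model and 78.1, 72.5 and 62.4 CPM in order of dose, and no library of a fucoxanthin group reached the lowest Model library. Against Model the log2 fold change was -0.26 (adjusted p = 0.0962) at 0.5 μM, -0.37 (adjusted p = 0.00508, SE 0.0766) at 1 μM and -0.59 (adjusted p = 8.52e-06, SE 0.0772) at 2 μM. The last value left 66.5% of the Model level. FUCO-2 was also below FUCO-0.5, with a log2 fold change of -0.32 (adjusted p = 0.006, SE 0.0774). ONECUT1 lies at chr15:52755053-52790336 on the minus strand.

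NR5A2, an orphan nuclear receptor of bile acid and cholesterol genes (chr1:200027710-200177415, plus strand), had 85.2, 91.9 and 90.3 CPM in Model and 67.6, 79.6 and 78.4 CPM in FUCO-2. The groups did not overlap and the log2 fold change was -0.24 (adjusted p = 0.0277, SE 0.078). At 2 μM against Model, groups did not overlap in 5 of the 8 factors, beside 8 of 21 other liver transcription factors listed below. PROX1 had 370, 385 and 372 CPM in Model and 305, 333 and 321 CPM in FUCO-2, with a log2 fold change of -0.23 (adjusted p = 0.0263, SE 0.0726). At 2 μM PROX1 was not past the test against Con (log2 fold change 0.07, 95% interval -0.08 to 0.22, adjusted p = 0.531), whereas at 0.5 and 1 μM it was above Con by 0.40 (adjusted p = 0.000249) and 0.23 (adjusted p = 0.0274). The PROX1 call at 1 μM against Con was lost in 4 of 27 alternative settings, with adjusted p up to 0.122. FUCO-0.5 had 409, 420 and 380 CPM of PROX1, and FUCO-2 was lower than FUCO-0.5 by a log2 fold change of -0.33 (adjusted p = 0.00284, SE 0.0726).

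FOXA1 (chr14:37589552-37595249, minus strand) had 141, 131 and 132 CPM in Model and 125, 115 and 118 CPM in FUCO-2. The groups were apart by a small gap, with a log2 fold change of -0.17 (adjusted p = 0.0494, SE 0.0625). That call was lost in 19 of 27 alternative settings, with adjusted p up to 0.214. The NR5A2 and PROX1 calls were lost in 4 and 6 of 27, each including library totals alone as the scale, under which ONECUT1 was the 1 factor still past the test.

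CEBPA and FOXA3, the factors lower in Model than in Con, were not past the test against Model at any fucoxanthin dose. CEBPA had 217, 128 and 152 CPM in FUCO-2, a spread that contains all 3 Model libraries, and the log2 fold change from Model was 0.01 (95% interval -0.27 to 0.30, adjusted p = 0.967). Replicate 1 of FUCO-2 was high for CEBPA and, at 113 CPM beside 83.5 and 92.4 CPM, for FOXA2. FOXA3 differed from Model by 0.05 (95% interval -0.14 to 0.23, adjusted p = 0.765). Both were below Con at each dose. For CEBPA the log2 fold changes against Con were -0.67 (adjusted p = 0.000996), -0.44 (adjusted p = 0.0279) and -0.54 (adjusted p = 0.00535) from the lowest to the highest dose. The CEBPA call at 1 μM was lost in 6 of 27 alternative settings, with adjusted p up to 0.122. For FOXA3 the log2 fold changes against Con were -0.44 (adjusted p = 0.000848), -0.37 (adjusted p = 0.00454) and -0.31 (adjusted p = 0.014). The FOXA3 call at 2 μM was lost in 4 of 27 alternative settings, with adjusted p up to 0.103.

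FOXA2 (chr20:22580998-22585490, minus strand) and HNF4A were not past the test against Model at any dose. At 2 μM their log2 fold changes were -0.21 (95% interval -0.40 to -0.02, adjusted p = 0.112) and -0.22 (95% interval -0.43 to -0.01, adjusted p = 0.137). The HNF4A libraries of FUCO-2 all lay below those of Model, while those of FOXA2 overlapped. FOXA2 was nevertheless below Con in each fucoxanthin group, by -0.27 (adjusted p = 0.0371), -0.32 (adjusted p = 0.0178) and -0.31 (adjusted p = 0.016), and these calls were lost in 7, 4 and 4 of 27 alternative settings. FOXA2 is the pioneer factor that in fasting liver also promotes fatty acid oxidation genes. It had 118, 120 and 120 CPM in Con, 101, 87.4 and 109 CPM in FUCO-0.5 and 97.5, 91.1 and 98.9 CPM in FUCO-1.

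In all, 4 factors differed from Con in FUCO-0.5, 4 in FUCO-1 and 6 in FUCO-2. The shares of all genes past the test in these comparisons were 21.9% (10.4% higher and 11.4% lower), 18.3% (8.22% higher and 10.1% lower) and 24.8% (11.9% lower). In FUCO-0.5 and FUCO-1 these were PROX1, higher, and CEBPA, FOXA3 and FOXA2, lower. In FUCO-2 all 6 were lower, and HNF4A and PROX1 were the exceptions. The FOXA1 call in FUCO-2 against Con was lost in 5 of 27 alternative settings, with adjusted p up to 0.205. Between FUCO-2 and FUCO-1, 0 of the 8 were past edgeR's test and 0 past that of DESeq2, with 2 at an unadjusted p below 0.05, beside 6.3% of all genes. Between FUCO-2 and FUCO-0.5, 4 were past it (ONECUT1, NR5A2, PROX1 and FOXA1, all lower at 2 μM), beside 15.1% of all genes past the test and 6.68% lower, and FOXA1 was again near the threshold (adjusted p = 0.0422, lost in 17 of 27 alternative settings).

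**Figure D2:**
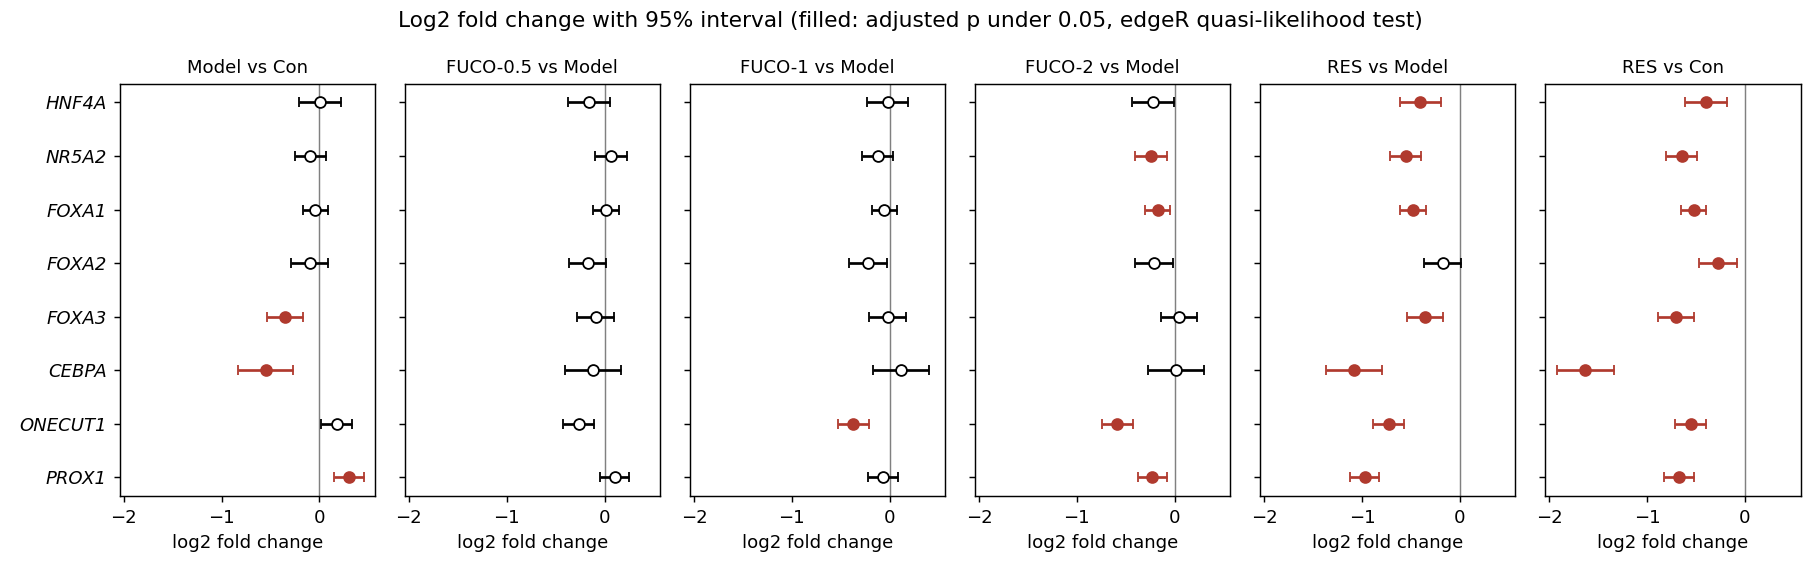
Log2 fold change of each of the 8 factors, with its 95% interval, in 6 comparisons, on a linear axis of log2 units with 0 as no difference. In RES against Model 7 of the 8 intervals lie below 0, from CEBPA at -1.08 to FOXA3 at -0.35, and that of FOXA2 reaches from -0.37 to 0.02.

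Resmetirom was compared with Model to see how the reference drug acted under the same FFA load. Of the 8 factors 7 were lower in RES and the exception was FOXA2. Over all genes 49.4% were past the test in this comparison and 25.1% were lower. The median log2 fold change of the 8 was -0.52, beside 0.00233 over all genes. The difference exceeded 1 on the log2 scale in 1 of them, CEBPA, as in 6.92% of all genes on the lower side.

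CEBPA had 76.7, 86.8 and 70 CPM in RES, all below the lowest Model library at 147 CPM. The log2 fold change was -1.08 (adjusted p = 7.76e-07, SE 0.141), which left 47.3% of the Model level, and 32.3% of the Con level. PROX1 had 212, 176 and 186 CPM in RES, far below the 370 CPM of its lowest Model library and also below every Con library. Its log2 fold change from Model was -0.97 (adjusted p = 7.38e-11, SE 0.0734), leaving 51%. These were the 2 largest differences among the factors.

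ONECUT1 had 57.3, 54.6 and 58 CPM in RES, with a log2 fold change from Model of -0.73 (adjusted p = 2.93e-08, SE 0.0771). NR5A2 had 63.7, 61.4 and 57.1 CPM, and its log2 fold change was -0.55 (adjusted p = 2.58e-06, SE 0.0782). FOXA1 had 95.6, 99.3 and 95.2 CPM, and its log2 fold change was -0.48 (adjusted p = 8e-07, SE 0.0626). In each of these genes the RES libraries lay below all Model libraries. Groups did not overlap in 7 of the 8 factors in this comparison, beside 17 of 21 other liver transcription factors listed below. The share over all genes is not given here.

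HNF4A had 279, 253 and 227 CPM in RES, so that 75.6% of the Model level remained (log2 fold change -0.40, SE 0.103, adjusted p = 0.00219). FOXA3 had 50.6, 53.1 and 42.8 CPM in RES, with a log2 fold change from Model of -0.35 (adjusted p = 0.00217, SE 0.0905). FOXA2 had 96.2, 105 and 95.5 CPM in RES and 119, 102 and 114 CPM in Model, with overlapping groups and a log2 fold change of -0.17 (95% interval -0.37 to 0.02, adjusted p = 0.124). With these 2 groups fitted alone FOXA2 too was past the test, at adjusted p = 0.0111 by edgeR and 0.0134 by DESeq2.

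Against Con all 8 factors were lower in RES, beside 28.5% of all genes called lower and 57.3% called in either direction, and no RES library overlapped Con in any of them, which held for 64.6% of all genes. The median log2 fold change of the 8 was -0.60, beside 0.0029 over all genes. The values ran from -0.27 for FOXA2 (adjusted p = 0.0142) and -0.40 for HNF4A (adjusted p = 0.00203) to -1.63 for CEBPA (adjusted p = 6.23e-10). When libraries were scaled by their totals alone, the median log2 fold change of all genes was 0.195 in this comparison and 0.136 in RES against Model. HNF4A and FOXA2 were then not past the test against Con (adjusted p = 0.0958 and 0.470), the other 6 remained lower, and against Model the count stayed at 7.

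RES and FUCO-2 were compared directly, although the Resmetirom dose is not known here and doses of the drugs cannot be matched. Of the 8 factors 5 were lower in RES (CEBPA, PROX1, FOXA3, FOXA1 and NR5A2), beside 48.4% of all genes past the test and 26% lower. PROX1 differed by a log2 fold change of -0.74 (adjusted p = 1.12e-08, SE 0.0732) and CEBPA by -1.09 (adjusted p = 7.74e-07, SE 0.141). FOXA3, FOXA1 and NR5A2 differed by -0.40, -0.31 and -0.31, with adjusted p of 0.00074, 0.000286 and 0.00223. ONECUT1 was not past the test, at -0.14 (95% interval -0.30 to 0.02, adjusted p = 0.143). FOXA2 differed by 0.04 (95% interval -0.15 to 0.23) and HNF4A by -0.18 (95% interval -0.40 to 0.03).

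Ordered from the lowest to the highest group mean, neighboring groups rarely differed. For PROX1 the step from RES to Con was past the test. For NR5A2 and FOXA1 it was the step from RES to FUCO-2. CEBPA and FOXA3 each had 2 such steps, from RES to FUCO-0.5 and, at the upper end, to Con from FUCO-1 for CEBPA and from FUCO-2 for FOXA3. For HNF4A, FOXA2 and ONECUT1 no step between neighbors was past the test. Of the 15 pairs of groups, 10 were past the test for PROX1, 9 for CEBPA and FOXA3, 8 for ONECUT1, NR5A2 and FOXA1, 4 for FOXA2 and 3 for HNF4A.

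Several of the factors have a long non-coding RNA next to them, and 4 of these were measured. LINC00261 starts 6813 bases from FOXA2 on the same strand, CEBPA-DT starts 323 bases from CEBPA in the opposite direction, and HNF4A-AS1 and PROX1-AS1 lie antisense to their partners. LINC00261 had 412, 383 and 403 CPM in Model, 227, 237 and 264 CPM in FUCO-2 and 187, 182 and 194 CPM in RES. It was lower than Model by a log2 fold change of -0.72 (adjusted p = 1.59e-07, SE 0.0706) in FUCO-2 and of -1.09 (adjusted p = 5.02e-12, SE 0.0711) in RES, whereas FOXA2 beside it was past the test in neither. The difference between the genes of a pair was not tested.

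CEBPA-DT showed the opposite arrangement. It had 7.9, 8.45 and 9.26 CPM in Model and 8.44, 9.37 and 8.77 CPM in RES, so that the groups overlapped (log2 fold change 0.05, SE 0.143, adjusted p = 0.796) in a comparison in which CEBPA itself was at 47.3% of Model. PROX1-AS1 was lower than Model in RES by -1.06 (adjusted p = 2.6e-06, SE 0.15) and in FUCO-2 by -0.55 (adjusted p = 0.00977, SE 0.148), in the same direction as PROX1. HNF4A-AS1 was lower in RES by -1.16 (adjusted p = 0.00679, SE 0.342), from 5 to 35 counts per library.

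The spans of the antisense pairs, introns included, share 22961 bases for HNF4A and HNF4A-AS1 and 5328 bases for PROX1 and PROX1-AS1. The exons of HNF4A-AS1 cover 912 bases in all, and the exon bases shared were not counted. The counting was not stated to use strand. Reads from shared exon bases cannot be told apart then, and how far this affects the values of both partners was not tested. PROX1-AS1 had 150 to 348 counts per library, beside 3267 to 8031 for PROX1. The same limit holds for CEBPA, which shares 1235 and 662 bases with antisense long non-coding RNAs. FOXA1 shares 431 bases with the antisense TTC6.

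**Figure D3:**
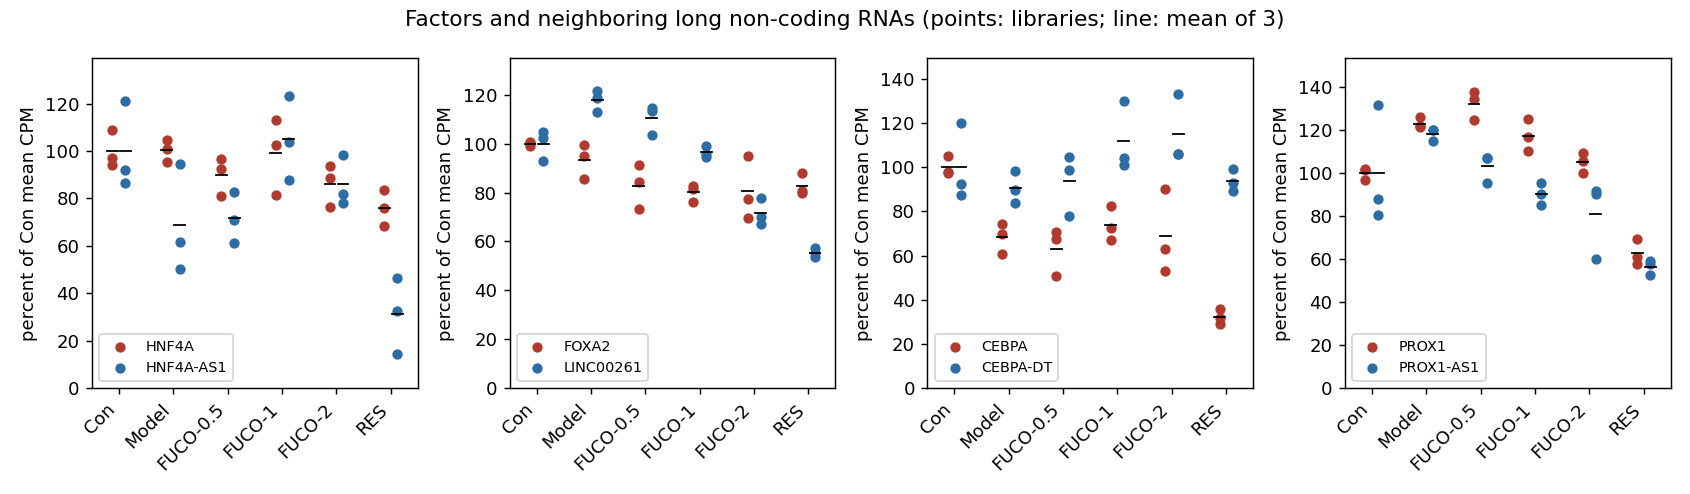
Level of 4 factors and of the long non-coding RNA next to each, as a percent of the Con mean (linear axis from 0), with points for the 18 libraries and 1 panel per pair over the 6 groups. The mean of LINC00261 lies below that of FOXA2 in FUCO-2 and RES, and every CEBPA point lies below every CEBPA-DT point in RES.

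The wider liver factor network was described by a list of 21 other liver transcription factors, all of them tested. The counts of this list and of those below stand beside the shares of all genes past the test. These were 49.4% in RES against Model (25.1% lower) and 20.5% in FUCO-2 against Model (9.71% lower). In Model against Con the share was 17.6% (9.12% lower). In RES against Model 11 were lower and 2 higher, with a median log2 fold change of -0.25. The largest differences were those of NR1H4 (FXR, the bile acid receptor) at -1.96 (adjusted p = 6.82e-13, SE 0.114), CREB3L3 (a membrane-bound factor of the fasting and lipid response) at -1.86 (adjusted p = 1.16e-09, SE 0.164) and RXRA (the shared partner of many nuclear receptors) at -1.13 (adjusted p = 1.6e-09, SE 0.101). In FUCO-2 against Model 4 were lower and 1 higher, with a median of -0.06. CEBPB, a C/EBP family member of the acute phase, was the higher one at 0.54 (adjusted p = 0.00416, SE 0.13), while NR0B2 (SHP), a corepressor of bile acid synthesis, was lower at -0.53 (adjusted p = 0.000498, SE 0.0992). In Model against Con 6 were lower and 2 higher, with a median of -0.10. The mean of CREB3L3 was 21.8 CPM in Con, 76.1 CPM in Model and 20.9 CPM in RES. Those of NR1H4 were 36, 22.9 and 5.93 CPM in the same order, and those of RXRA 210, 186 and 85.2 CPM.

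Known target genes of the factors were read beside them. Of 17 HNF4A targets 13 were tested, and 11 of these were lower in RES than in Model and 0 higher, with a median log2 fold change of -1.62. APOA1 and APOC3, which encode apolipoproteins, differed by -2.56 and -2.39, and TTR, which encodes the thyroid hormone carrier transthyretin, by -2.46, with adjusted p of 2.2e-13, 3.85e-10 and 1.58e-14. HNF4A itself differed by -0.40. In FUCO-2 against Model 5 of the 13 were lower and 0 higher, with a median of -0.27, led by TTR at -0.88 (SE 0.11), the transferrin gene TF at -0.60 (SE 0.132) and the α1-antitrypsin gene SERPINA1 at -0.53 (SE 0.0868). Without Model replicate 2 the count was 3. In Model against Con 4 were lower, with a median of -0.25.

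All 7 listed FOXA and CEBPA targets were tested, and 5 were lower and 1 higher in RES than in Model, with a median log2 fold change of -2.17. Some of the 7 had few counts. HP had 7 to 15 per library in Model and 2 to 3 in RES, and CPS1 had 36 to 59 and 11 to 15. AFP, the fetal serum protein gene, fell by 4.72 (adjusted p = 7.02e-17, SE 0.162) and ALB, the albumin gene, fell by 2.17 (adjusted p = 1.95e-15, SE 0.0907). IGFBP1, whose product binds insulin-like growth factors, rose by 3.62 (adjusted p = 2.83e-13, SE 0.202). In FUCO-2 against Model 2 were lower, AFP at -0.59 (SE 0.139) and ALB at -0.51 (SE 0.0871). Of 6 NR5A2 targets 4 were tested and all 4 were lower in RES, with a median of -0.86, including the sterol transporter genes ABCG8 at -1.83 (adjusted p = 7.03e-05, SE 0.333) and ABCG5 at -1.13 (adjusted p = 0.0208, SE 0.398). In FUCO-2 APOM, an apolipoprotein gene, was the 1 lower, at -0.53 (adjusted p = 0.0107, SE 0.143). Its groups overlapped, and the count was 0 without Model replicate 3, FUCO-2 replicate 1 or FUCO-2 replicate 2.

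**Figure D4:**
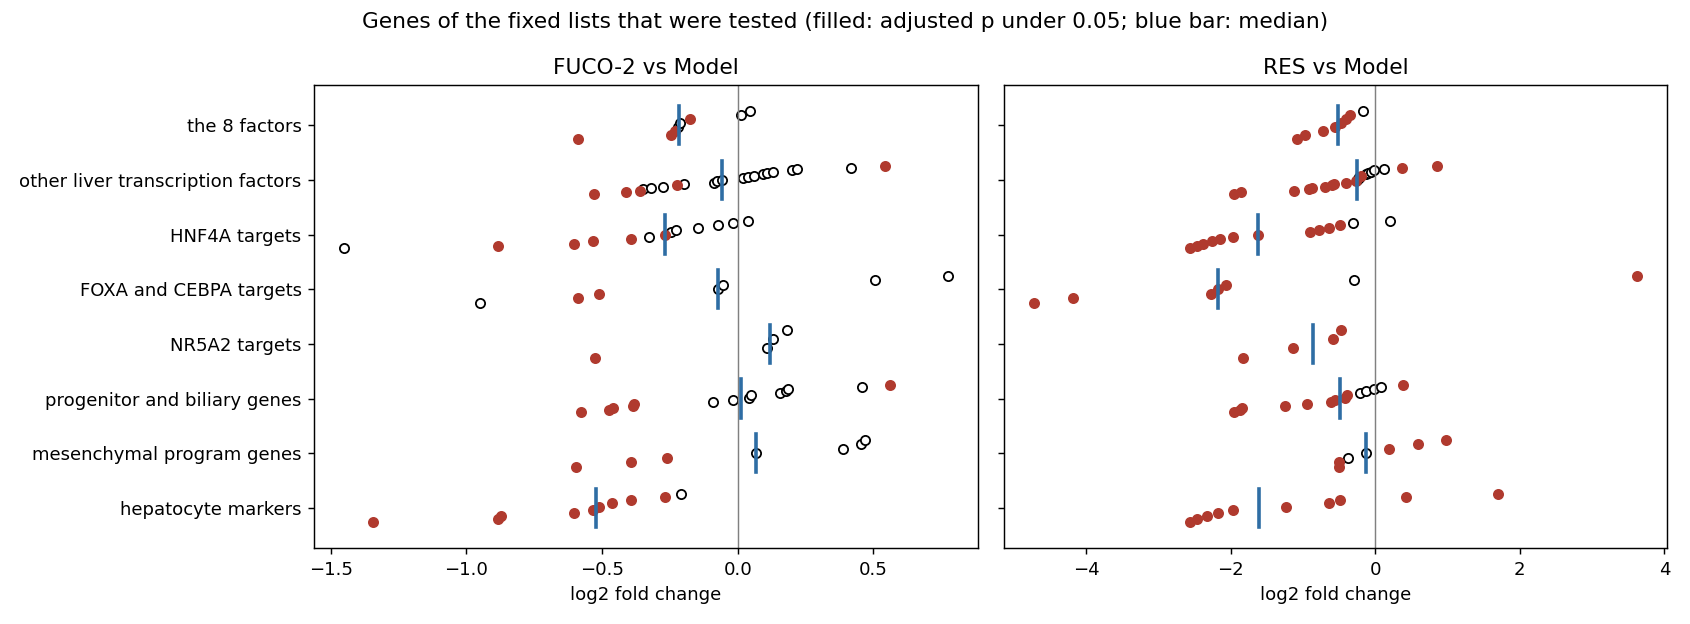
Log2 fold change of each tested gene of the lists in FUCO-2 against Model and in RES against Model, in 1 panel per comparison whose log2 axes differ in range, with points for genes. In RES the medians of the HNF4A targets (-1.62) and of the FOXA and CEBPA targets (-2.17) lie further below 0 than that of the 8 factors (-0.52).

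The hepatocyte markers were read in the same comparisons. Their summed level was 55516 to 56367 CPM in Model, 38979 to 42636 CPM in FUCO-2 and 17657 to 18955 CPM in RES. In RES 8 of the 10 were lower than in Model and 2 were higher, with a median log2 fold change of -1.60, and APOH, a plasma glycoprotein gene, was among the largest at -2.33 (SE 0.105). The higher ones were the fibrinogen genes FGA at 1.70 and FGB at 0.42, and both of these were lower in FUCO-2, at -0.87 and -1.34. In FUCO-2 9 of the 10 were lower and 0 higher, with a median of -0.52. In Model against Con 6 were lower, with a median of -0.29, and 3 were past the test without Con replicate 2 or without Con replicate 3. Part of these markers (ALB, APOA1, APOB, SERPINA1, TF and TTR) also stand in the target lists.

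Genes of the liver progenitor or bile duct state were listed as an alternative fate, and 14 of 15 were tested. In RES against Model 9 were lower and 1 higher, with a median log2 fold change of -0.49. CD24, DLK1 and GPC3, surface proteins of progenitor and liver tumor cells, differed by -1.95, -1.87 and -1.85 (SE 0.087, 0.117 and 0.0758). In FUCO-2 5 were lower and 1 higher, with a median of 0.01, and the higher one was SOX9, a bile duct factor, at 0.56 (adjusted p = 0.00369, SE 0.132), while SOX4 was lower at -0.58 (adjusted p = 2.95e-05, SE 0.0836). Of 9 genes tied to the mesenchymal program 7 were tested, including CDH1, the gene of the epithelial cadherin, which that program lowers. In RES 3 were higher and 2 lower, beside 49.4% of all genes past the test, with a median of -0.13. Without Model replicate 2 or without RES replicate 1, 3 in all were past the test. SNAI1 and ZEB1, repressors of epithelial genes, were higher by 0.98 (adjusted p = 0.000152, SE 0.191) and 0.60 (adjusted p = 0.00102, SE 0.14), and the matrix gene FN1 by 0.19. The lower ones were VIM, the gene of a mesenchymal intermediate filament, at -0.50 (adjusted p = 0.0107, SE 0.157) and CDH1 at -0.50. In FUCO-2 3 were lower and 0 higher, namely CDH1 at -0.60 (adjusted p = 1.14e-06, SE 0.0677), FN1 at -0.39 (adjusted p = 0.000402, SE 0.0718) and CDH2, the gene of the neural cadherin, at -0.26 (adjusted p = 0.0122, SE 0.0728).

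The genes whose log2 CPM followed each factor most closely over the 18 libraries were searched among 13069 genes, as a description over libraries that share 6 group means. For CEBPA they were TPRN, HPN and HDAC11, with Pearson's r of 0.981, 0.976 and 0.974. For PROX1 they were SNAP25, TGFBR2 and IGSF9, with 0.98, 0.973 and 0.972. For FOXA1 they were TNS1, PRLR and MARCKSL1 (0.975, 0.966, 0.963), for NR5A2 PRKD1, HELZ and NRP1 (0.963, 0.957, 0.955) and for ONECUT1 DSC2, SMAD3 and LOC101928499 (0.957, 0.915, 0.913). The closest genes were GHDC, PC and CHFR for FOXA3 (0.953, 0.943, 0.936), TAOK2, ITPKC and ACOT2 for HNF4A (0.926, 0.91, 0.901) and CYB5R3, RALY and NR2F2 for FOXA2 (0.879, 0.878, 0.854). The r was lowest for HNF4A and FOXA2, the factors with the smallest ranges between groups.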

How the data were processed

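Gene-level read counts of 18 poly(A) RNA-seq libraries of Hep3B cells (6 groups of 3) were analyzed. Per the methods, the authors cleaned the reads (fastp), placed them on GRCh38.p14 (STAR) and assigned them to genes of a GENCODE annotation (featureCounts). The count table was deposited without normalization. The methods name 2 sequencing platforms, do not assign libraries to them, and place all samples in 1 run. The handling of strand and of reads with several matches was not given in the sources used here.

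Groups were taken from the sample titles. Counts were tested with edgeR 4.0.16 (quasi-likelihood, R 4.3.3, limma 3.58.1) in 1 fit of all 18 libraries without covariates, after filterByExpr (minimum count 10, minimum total 15), with TMM factors, a prior count of 0.125 for fold changes and Benjamini-Hochberg adjustment over 14557 genes, with a threshold of 0.05. The methods call the replicates biological, and where nothing more is said of separate cultures the p-values measure the spread between these libraries. Comparisons with Model share its 3 libraries, and those with Con share the 3 of Con. Library totals were 16916688 to 23083498 counts. Limits for counts of 0 (3 counts) cover counting error only. No 2 replicates agreed within sampling noise (chi-square per degree of freedom 2.34 to 20.0). Con replicate 1 gave 16.15 and 13.7 with the other Con libraries, which gave 2.34 with each other. FUCO-2 replicate 1 gave 20.0 and 19.3 with the other FUCO-2 libraries, which gave 5.91 with each other. On simulated data for Model against Con (14343 genes), 78 of 100 genes changed by 0.5 on the log2 scale and 100 of 100 changed by 1.5 were recovered. Of the unchanged genes 11 were called. Far fewer genes were changed there than the 2555 called in the data, and genes of low level were not among them. The shares recovered therefore cannot be carried over to the data.

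The factors, gene lists and tests were chosen with earlier results of these data known. In each list the 3 genes past the test with the largest absolute log2 fold change (mean of at least 1 CPM) were eligible for naming in FUCO-2 and RES against Model, beside all 8 factors and 4 neighboring long non-coding RNAs, and 1 of these genes is not reported here. Genes outside that rule that the text names (FGA and FGB as the higher markers in RES, PECAM1, and FN1 and CDH1 in RES) were chosen after their values were seen. Genes closest to each factor were ranked by Pearson's r of log2 CPM. Promoters came from RefSeq, GRCh38.p14. Exon length was the merged exons of a GENCODE annotation. DESeq2 1.42.0, other scalings, filters and prior counts, 2-group fits, a replicate block and the omission of each library were tried as alternatives.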

Additional observations from a re-analysis of the deposited data

How the results depend on the processing

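Of 2052 values for single factors under the alternatives, 1941 kept their direction and side of the threshold, 84 lost the call, 8 gained it and 19 changed sign. Scaled by library totals only, the count of factors past the test was 1 in FUCO-2 against Model (4 with TMM), 2 in FUCO-1 against Con (4 with TMM) and 3 in FUCO-2 against Con (6 with TMM). It was also 3 in FUCO-2 against Con with edgeR on the 2 groups alone, and 1 in FUCO-0.5 against Model (0 in the full edgeR fit) with DESeq2 on all libraries, DESeq2 on 2 groups and edgeR on 2 groups. With 1 library left out at a time the counts ran from 3 to 3 in Model against Con, 0 to 1 in FUCO-0.5 against Model, 1 to 1 in FUCO-1 against Model, 1 to 4 in FUCO-2 against Model, 7 to 7 in RES against Model, 3 to 4 in FUCO-0.5 against Con, 1 to 6 in FUCO-1 against Con, 3 to 6 in FUCO-2 against Con, 7 to 8 in RES against Con and 0 to 1 in FUCO-2 against FUCO-1. The count in FUCO-2 against Model was 1 without Model replicate 2 or 3 and 2 without Model replicate 1 or FUCO-2 replicate 3. That in FUCO-1 against Con was 1 without Con replicate 2 or 3 or FUCO-1 replicate 2 and 2 without FUCO-1 replicate 1. In FUCO-2 against Con it was 3 without FUCO-2 replicate 2, and without Con replicate 1 it was 1 in FUCO-0.5 against Model and in FUCO-2 against FUCO-1. The cause of these shifts was not tested.

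Signs changed only for values that were not past the test. With library totals only the log2 fold change was 0.0153 for FOXA1 in Model against Con, and 0.00243 for HNF4A and 0.00109 for FOXA3 in FUCO-1 against Model. With 1 library left out, values ran from -0.0370 to 0.0710 for HNF4A in Model against Con, from -0.127 to 0.102 for HNF4A and from -0.0815 to 0.0159 for FOXA3 in FUCO-1 against Model, from -0.00387 to 0.0493 for FOXA1 and from -0.209 to 0.0163 for CEBPA in FUCO-0.5 against Model, from -0.233 to 0.166 for CEBPA and from -0.0245 to 0.0911 for FOXA3 in FUCO-2 against Model, and from -0.0569 to 0.170 for FOXA2 in RES against FUCO-2. The CEBPA and FOXA3 values in FUCO-2 changed sign without FUCO-2 replicate 1. FOXA2 in FUCO-2 against Model was past the test without that library (adjusted p = 0.00675).

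Of 729 list counts, 678 stayed within 1.5 times their value. The HNF4A targets called in Model against Con (4) were 9 with no filter, 8 with edgeR and 9 with DESeq2 on 2 groups, and those in FUCO-2 against Model (5) were 8 with no filter. Without 1 library, the counts in Model against Con ran from 3 to 7 for the hepatocyte markers (6 with all), from 1 to 3 for the progenitor and bile duct genes (3 with all) and from 0 to 4 for the mesenchymal genes (4 with all). By library totals the FOXA and CEBPA targets called in Model against Con were 1 (3 with TMM).

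Replicate numbers are shared by the groups. Over all tested genes, deviations from group means correlated at a median of 0.00946 (-0.137 to 0.171) over 45 pairs of the same number. Over 90 pairs of different numbers the median was -0.0115 (-0.229 to 0.232), and 7 of 18 libraries correlated best with one of their own number. For HNF4A and CEBPA, however, replicate 2 was the lowest library of Con, Model and each fucoxanthin group, and replicate 3 that of RES. For PROX1 replicate 2 was the lowest in none of the groups but RES. Whether replicates of the same number share a batch was not tested. With the replicate block 5 factors were past the test in FUCO-1 against Con (4 without it), and the count was 3 in Model against Con, 4 in FUCO-2 against Model and 7 in RES against Model, as without it.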
